A study of Rattus norvegicus with 16 samples.

Results

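The genes described here carry out fatty acid oxidation and ketogenesis, and they were measured in the livers of male Lewis rats aged 3, 9, 12, 18 and 24 months. Members were the non-control probes whose array gene name equals 1 of 35 chosen symbols, with Dci read as Eci1 and Peci read as Eci2. The array held 34 of these 35 genes on 46 probes, among 21488 genes that could be tested in all, and Plin2 was not found under its symbol and was skipped. Liver RNA was measured on 16 one-colour Agilent rat gene expression arrays, 1 per sample, with 3 arrays at each of 3, 9, 12 and 18 months and 4 arrays at 24 months. All groups shared strain, sex, pathogen-free housing with a 12-h light and dark cycle and free food and water, no group carried a treatment, and each liver had been snap frozen. The labels give neither the hour of collection nor the feeding state at collection. They do not say that the samples of an age are separate animals, so p-values measure the spread between these samples alone, which may be technical. They name a microRNA labelling kit for an array of mRNA probes, a point that could not be settled here.

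Fatty acids are joined to coenzyme A by acyl-CoA synthetases, carried into mitochondria by the carnitine shuttle and shortened there in repeated cycles of dehydrogenation, hydration, a second dehydrogenation and thiolysis. Electrons leave through electron transfer flavoprotein, and the liver turns much of the acetyl-CoA into ketone bodies that other organs burn during fasting. Peroxisomes shorten very long chains first. The nuclear receptor encoded by Ppara binds fatty acids and, as a heterodimer with a retinoid X receptor, raises the transcription of most of these genes, in particular during fasting.

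All levels are on a log2 scale on which 0 is the 75th percentile of the array's probes, so 1 unit is a 2-fold difference, and since probes differ in brightness no level of 1 gene is set against that of another. Between 52.5% and 65.2% of probes lay well above background per array, and 33 of the 34 genes did so on all 16 arrays. Acot1 did so on 15 of 16, the exception being 1 of the 4 arrays at 24 months. All 15 hepatocyte markers were above background on every array, and 0 of 15 passed the test in 24 against 3 months, although their summed signal ran from 5926 to 9070 times the 75th percentile at 24 months, against 7836 to 8772 times at 3 months. In 24 against 3 months, where 4.23% of all genes were higher and 9.07% lower, some markers of other cells were called. Of 12 macrophage markers 4 were higher (Vsig4 by 2.03 and Cd163 by 1.70) and 1 lower. Lower were 4 of 9 matrix and stellate cell markers (Col3a1 by -1.11) and 3 of 7 neutrophil markers. Of 13 lymphocyte markers 2 were higher and 1 lower, and of 9 endothelial markers 2 were higher and 1 lower. Of 8 fat cell markers, Cfd and Cidea were above background on 16 arrays, Lpl on 12, Adipoq and Plin1 on 1 each and Lep on 0, and Cfd was higher by 1.76; the mean of the 4 that could be tested, centred on all arrays, was highest on replicate 3 of 24 months, at 2.04. Of 10 muscle markers, Mb, Tnni2 and Fabp3 were above background on 16 arrays and Acta1 and Myh4 on 0. Ckmt2 was called lower in 24 against 3 months, but it was above background on only 5 arrays. These were 2 arrays at 3 months, 0 at 9, 12 and 24 months and 3 at 18 months, so no size is given. Of 4 red cell markers tested 0 were called in any comparison. Their summed signal was 40.4 on replicate 2 of 12 months and 33.5 on replicate 3 of 24 months, against 6.73 to 16.5 on all other arrays. Replicate 3 of 24 months also had the highest summed signal of neutrophil markers (51.4) and the lowest of hepatocyte markers (5926). In 9 against 3 months 5 of 13 lymphocyte markers were lower, with 0 of 13 differences above 0, and so were 4 of 7 neutrophil markers, against 3.2% of all genes. In 24 against 18 months 9 of 13 lymphocyte markers were higher and 1 lower, 8 of 12 macrophage markers were higher, and of 6 bile duct cell markers 4 were higher and 1 lower. Of all genes, 10.8% were higher and 15% lower there. In these bulk samples, fewer cells of a type and less RNA per cell cannot be told apart, and the part of other cells in the results below was not tested. All 3-month arrays shared slide 1 with 1 array of 9 months, and the 18-month arrays had slide 4. Of the 24-month arrays, replicates 1 and 2 had slide 5, replicate 3 had slide 6 and replicate 4 had slide 7. For comparisons with 18 or 24 months the slide and the age thus cannot be told apart. Scan session stands here for the calendar year of the scan date. Replicates 3 and 4 of 12 months and all 18-month arrays belonged to scan session 2, and all other arrays to session 1. Within session 1, the 24-month arrays were scanned on day 2 and the other arrays on day 1. In 24 against 3 months the scan day and the age thus cannot be told apart. The 24- and 18-month arrays thus differ in session, and so do most 12-month arrays from those of 9 months.

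Across the 5 ages, 11 of the 34 genes passed a moderated F test for any age difference (limma, Benjamini-Hochberg adjusted p under 0.05), against 37.4% of all genes tested. Leaving out any 1 of the 3-month arrays, replicate 3 or 4 of 18 months or replicate 2 of 24 months left 7 genes, leaving out replicate 4 of 24 months left 19, and without any other single array the count lay between 8 and 14. The share of all genes in those fits is not given, so whether these shifts are particular to the 34 genes was not tested. The 3-month arrays held the lowest mean of the 5 ages for 23 of the 34 genes and the highest mean for 0. The 18-month arrays held the highest mean for 16 genes, the 9-month arrays for 9, the 12-month arrays for 7 and the 24-month arrays for 2. The spread between arrays was largest at 24 months: the median SD over the genes was 0.10 at 3 months, 0.14 at 9, 0.33 at 12, 0.29 at 18 and 0.54 at 24 months. Single arrays were often the highest or lowest of their age. At 24 months, replicate 1 was the highest array for 24 of the 34 genes, whereas replicate 4 was the lowest for 16 and the highest for 9. Replicate 1 of 18 months was the lowest array of its age for 22 genes, replicate 1 of 3 months for 21 and replicate 2 of 12 months for 19.

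**Figure D1:**
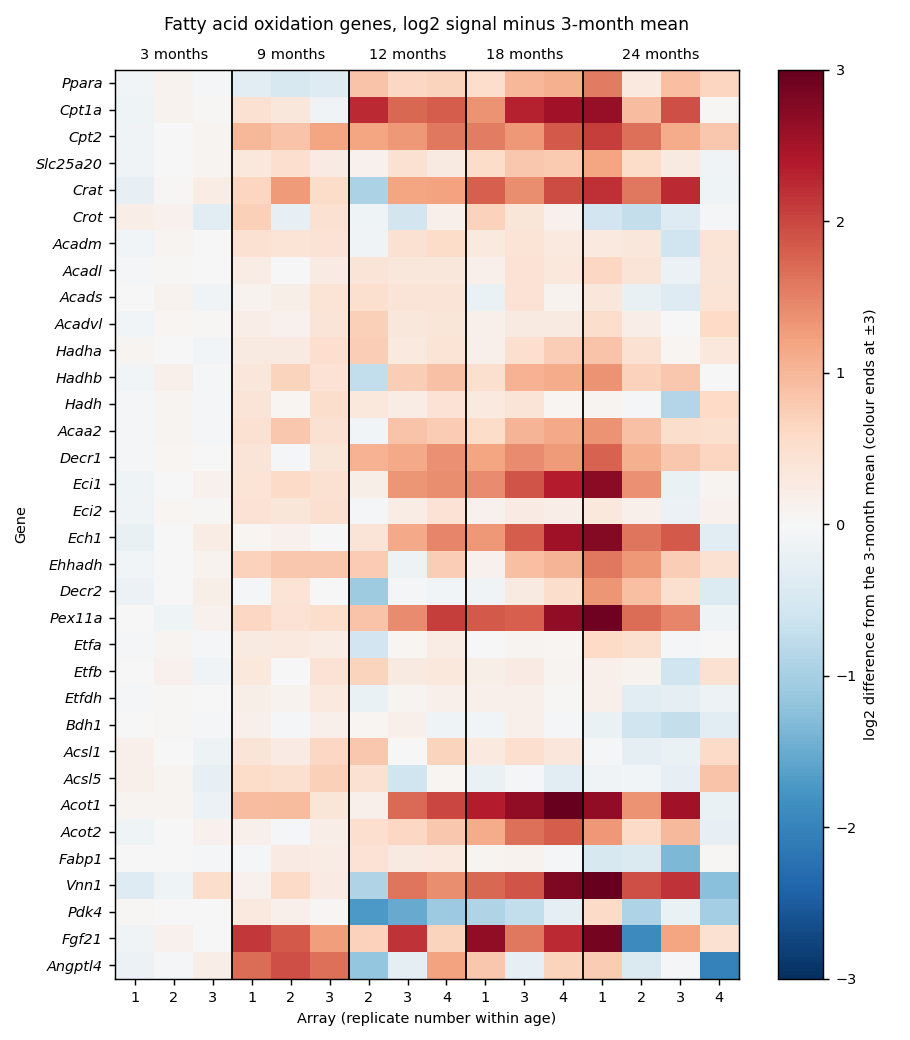
Log2 signal of 34 fatty acid oxidation genes (rows, ordered by role) on 16 arrays (columns, by age and replicate number), minus the mean of the 3-month arrays of each gene, with red for higher and blue for lower. Most rows turn red from 9 or 12 months on, replicate 1 of 24 months is the reddest column of that age, and replicate 4 of 24 months lies close to the 3-month arrays for Cpt1a, Crat, Ech1, Pex11a, Acot1 and Acot2.

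In 24 against 3 months, the whole span of ages, 5 of the 34 genes were higher and 1 was lower (limma, adjusted p under 0.05 over all genes), against 4.23% of all genes higher and 9.07% lower. Those higher were Cpt2 and Decr1, whose calls held when any single array was left out, and Ehhadh, Ppara and Acaa2. Bdh1 was lower. The median difference over the 34 genes was 0.44, with 27 above 0, while the median over all genes was -0.04. Without replicate 1 of 24 months the median of the 34 genes was 0.25 with 24 above 0, and with normexp background correction it was 0.18, against 0.12 over all genes. For all 6 genes called, the arrays of 24 and 3 months did not overlap, and no other gene of the 34 had groups that stood apart; over all genes, groups stood apart upwards in 12.5% and downwards in 16.4%. Leaving out replicate 4 of 24 months left 15 genes called, 13 higher and 2 lower, against 5.07% and 10.6% of all genes in that fit. Leaving out replicates 3 and 4 together left 17, of which 16 were higher and 1, Fabp1, was lower, against 5.17% and 9.84% of all genes. That run was added after seeing the data. It leaves only replicates 1 and 2 for 24 months, which shared slide 5. Replicates 3 and 4 were the lowest 24-month arrays for 13 and 16 of the 34 genes, so their removal favours higher differences. Values of that run given below carry the same limits. Leaving out any 1 of the 3-month arrays left 2 genes called, leaving out replicate 2 of 24 months left 3, and no other single array moved the count outside 4 to 7. With slide as a random block limma called 0 of the 34 genes, against 1.44% of all genes. With normexp background correction it also called 0, against 2.31% of all genes.

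The regulator Ppara, the receptor itself, changed between ages (F test, adjusted p = 0.00269). Its signal was 0.24, 0.43 and 0.27 at 3 months, -0.01, -0.17 and -0.06 at 9 months and 1.18, 0.94 and 0.98 at 12 months. At 18 months it was 0.84, 1.31 and 1.37, and at 24 months 1.87, 0.60, 1.21 and 0.97. All 9-month arrays lay below all 3-month arrays, and all arrays of 12, 18 and 24 months lay above both. The difference was 0.85 (SE 0.23, adjusted p = 0.027) for 24 against 3 months and 1.11 (SE 0.25, adjusted p = 0.0198) for 12 against 9 months by limma. Within slide 2, where 1 array of 12 months, replicate 2, stands against 2 of 9 months, the difference was 1.22, a value given with no test. With slide as a fixed block the comparison rests on the same arrays, so no test of it is given either. Without replicates 3 and 4 of 24 months, the 24-month difference had an adjusted p of 0.0534 by limma, with a size of 0.92. The first call was lost without any 1 of the 3-month arrays and the second without any 1 of the 9-month arrays.

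Ppara and its partner bind a direct repeat of AGGTCA with 1 base between the copies, known as a DR1 element. This repeat, with any base between the copies, was sought on either strand with at most 2 mismatches over its 12 fixed letters in the RefSeq windows of GRCr8 that run from 250 bases before to 50 bases after each gene start. The table held 29 of the 34 genes. A match lay in 5 of these 29 windows (17.2%), in those of Acadvl, Crat, Etfa, Fabp1 and Slc25a20, against 3.77% of 33469 windows of all genes. The stretches around the 4 matches that lie before the gene start are shown, each 5′ to 3′ on the strand of the gene, because they let the element be read in place; capitals mark the match.
Acadvl: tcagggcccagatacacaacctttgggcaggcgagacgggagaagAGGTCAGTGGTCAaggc
Crat: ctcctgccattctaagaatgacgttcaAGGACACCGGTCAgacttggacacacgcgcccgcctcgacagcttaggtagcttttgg
Etfa: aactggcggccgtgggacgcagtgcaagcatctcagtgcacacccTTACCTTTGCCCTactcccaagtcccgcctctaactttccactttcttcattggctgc
Fabp1: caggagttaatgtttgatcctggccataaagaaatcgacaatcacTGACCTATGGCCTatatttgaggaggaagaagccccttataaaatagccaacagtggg
These lie at chr10:55236706-55236767 (minus strand) for Acadvl, chr3:34087265-34087349 (minus strand) for Crat, chr8:64788062-64788164 (minus strand) for Etfa and chr4:104749218-104749320 (plus strand) for Fabp1, all in GRCr8. The match begins 17 bases before the start of Acadvl and 223 before that of Crat, both on the strand of the gene, and 154 before that of Etfa and 77 before that of Fabp1, both on the other strand. Acadvl and Fabp1 have 1 mismatch each, and Crat and Etfa have 2. Of these 5 genes, only Fabp1 passed the F test, and it was 1 of the genes with lower signal at 24 months. Cpt2, Ehhadh and Ppara had windows without these letters, and Decr1 and Acaa2 are not in the table. The clock elements CACGTG and TTANGTAA were read exactly and on both strands: the first lay in 1 of 29 windows, that of Fgf21, against 6.42% of all windows, and the second in 0 of 29, against 2.24%. A match is a description of letters in a window and was not tested for binding.

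Among the 5 carnitine shuttle genes, 1 was called in 24 against 3 months. Cpt2, the inner membrane transferase that releases fatty acyl-CoA inside mitochondria, had log2 signals of 3.73, 3.83 and 3.92 at 3 months, 4.82, 4.70 and 5.02 at 9 months and 5.02, 5.13 and 5.41 at 12 months. It stood at 5.37, 5.14 and 5.68 at 18 months and at 5.90, 5.49, 4.94 and 4.64 at 24 months. Every array from 9 months on lay above all 3 arrays of 3 months. The difference was 1.02 (SE 0.26, adjusted p = 0.0391) for 9 against 3 months and 1.41 (SE 0.25, adjusted p = 0.00194) for 24 against 3 months by limma, a fold of 2.66 in the second. Cpt2 was the single gene of the 34 called in 9 against 3 months, where 1.94% of all genes were called higher. Within slide 1, which held 1 array of 9 months and the 3-month arrays, the difference was 0.87, a value given with no test. The 9-against-3-month call was lost without any 1 of the 6 arrays of 3 and 9 months, and also without replicate 1 of 18 months (highest adjusted p 0.15 by limma).

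Cpt1a, the outer membrane transferase that commits fatty acids to oxidation, passed the F test (adjusted p = 0.0111) but no single comparison. It read 2.43, 2.65 and 2.59 at 3 months and 3.00, 2.91 and 2.45 at 9 months. At 12 months it read 4.79, 4.29 and 4.38, at 18 months 3.90, 4.86 and 5.09 and at 24 months 5.17, 3.48, 4.49 and 2.60. The arrays of 12 and 18 months lay above every array of 3 and 9 months, and the 24-month arrays ran from the 3-month level in replicate 4 to the highest value of all in replicate 1. For 12 against 9 months the difference was 1.70 (SE 0.50, adjusted p = 0.0616), and within slide 2, with 1 array against 2 and no test, it was 2.06. For 24 against 3 months it was 1.38 (SE 0.47, adjusted p = 0.0699) by limma, and 1.77 without replicates 3 and 4 of 24 months. A second Cpt1a probe, designed to another transcript record, differed by 0.07 in 24 against 3 months and 0.35 in 12 against 9 months, so the 2 probes disagree on size.

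Crot, which exports chain-shortened acyl groups from peroxisomes as carnitine esters, took another course. Its values were 3.66, 3.53, 3.86 and 4.22 at 24 months, against 4.93, 4.61 and 4.38 at 18 months. The 24-month arrays lay below the 18-month arrays throughout, and the difference was -0.82 (SE 0.25, adjusted p = 0.0286) by limma, a call lost without replicate 1 or 3 of 18 months or replicate 1 or 2 of 24 months. At the younger ages Crot read 4.45, 4.37 and 3.91 at 3 months, 4.96, 3.99 and 4.70 at 9 months and 4.11, 3.70 and 4.39 at 12 months, which overlap the 24-month values. Slc25a20, the carnitine and acylcarnitine carrier, and Crat, the carnitine acetyltransferase, passed no test. Their 24-against-3-month differences were 0.47 (adjusted p = 0.198) and 1.47 (adjusted p = 0.108). Without replicates 3 and 4 of 24 months they were 0.86 and 1.89. Crat was -0.38, -0.97, -0.32 and -2.69 at 24 months and -2.82, -2.53 and -2.34 at 3 months, so replicate 4 of 24 months fell among the 3-month arrays and the other three lay above them.

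The 4 acyl-CoA dehydrogenases, which open each cycle and differ in the chain length they take, moved little. Acadm, Acadl, Acads and Acadvl passed no test at any age, with 24-against-3-month differences between 0.04 and 0.33 and adjusted p of 0.174 or more. The second probe of Acadvl differed by 0.23 there, against 0.33 for the probe used. Acadm averaged 7.39 ± 0.48 at 24 months (SD, n = 4), against 7.72 ± 0.02 at 9 months (SD, n = 3), so its arrays were wider apart at 24 months. At 24 months it read 7.56, 7.62, 6.67 and 7.69, so replicate 3 alone lay below the 3-month arrays, which read 7.20, 7.37 and 7.26.

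Of the trifunctional protein, hydroxyacyl-CoA dehydrogenase and thiolase genes, 1 of 4 was called. Acaa2, the mitochondrial thiolase that splits off acetyl-CoA, had signals of 6.10, 5.62, 5.28 and 5.23 at 24 months, against 4.71, 4.82 and 4.70 at 3 months. All 24-month arrays lay above all 3-month arrays, and the difference was 0.81 (SE 0.25, adjusted p = 0.0466) by limma. In between it read 5.20, 5.55 and 5.20 at 9 months, 4.65, 5.59 and 5.52 at 12 months and 5.29, 5.76 and 5.87 at 18 months, where replicate 2 of 12 months was back at the 3-month level. A second Acaa2 probe differed by 0.86 in 24 against 3 months. The call was lost without any 1 array of 3 or 9 months, replicate 3 or 4 of 18 months or replicate 1 or 2 of 24 months, with adjusted p up to 0.135 by limma. Hadha, Hadhb and Hadh passed no test, with 24-against-3-month differences of 0.42, 0.72 and -0.07. Hadhb also had replicate 2 of 12 months below the 3-month arrays, at 0.32 against 0.98, 1.20 and 1.0.

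Of the 4 auxiliary genes that deal with double bonds, 1 was called in 24 against 3 months. Decr1, the mitochondrial dienoyl-CoA reductase needed for polyunsaturated chains, had log2 signals of 5.84, 5.94 and 5.89 at 3 months, 6.28, 5.86 and 6.25 at 9 months and 6.93, 7.03 and 7.26 at 12 months. It was 7.09, 7.30 and 7.17 at 18 months and 7.67, 6.95, 6.70 and 6.54 at 24 months. The arrays of 12, 18 and 24 months all lay above the arrays of 3 and 9 months. Decr1 was higher by 1.07 (SE 0.22, adjusted p = 0.00548) in 24 against 3 months and by 0.94 (SE 0.23, adjusted p = 0.0319) in 12 against 9 months (limma). Within slide 2 the second difference was 0.66 (1 array against 2, no test). The call for that step was lost with normexp background correction and with no filter. It was also lost without any 1 of the 9-month arrays or without replicate 3 or 4 of 12 months.

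Ech1, which isomerises dienoyl-CoA in mitochondria and peroxisomes, passed the F test alone (adjusted p = 0.044). It read 3.53, 3.75 and 3.97 at 3 months, 3.81, 3.87 and 3.77 at 9 months and 4.13, 4.90 and 5.22 at 12 months, then 5.05, 5.57 and 6.30 at 18 months and 6.49, 5.36, 5.58 and 3.44 at 24 months. Replicates 1, 2 and 3 of 24 months lay above all arrays of 3, 9 and 12 months, and replicate 4 lay below all 3-month arrays. The F test lost Ech1 without any 1 array of 3 or 9 months, replicate 3 or 4 of 12 or 18 months or replicate 2 or 3 of 24 months. Its 24-against-3-month difference was 1.47 (SE 0.53, adjusted p = 0.0882) by limma, and 2.18 without replicates 3 and 4. The enoyl-CoA isomerase Eci1 had a similar course without passing any test, with 3.87, 4.03 and 4.13 at 3 months, 5.44, 5.89 and 6.36 at 18 months and 6.71, 5.37, 3.81 and 4.09 at 24 months. At 24 months, replicates 1 and 2 lay above the 3-month arrays, replicate 4 lay among them and replicate 3 below. Eci2, a related isomerase, stayed between -0.22 and 0.42 in every comparison and passed none.

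**Figure D2:**
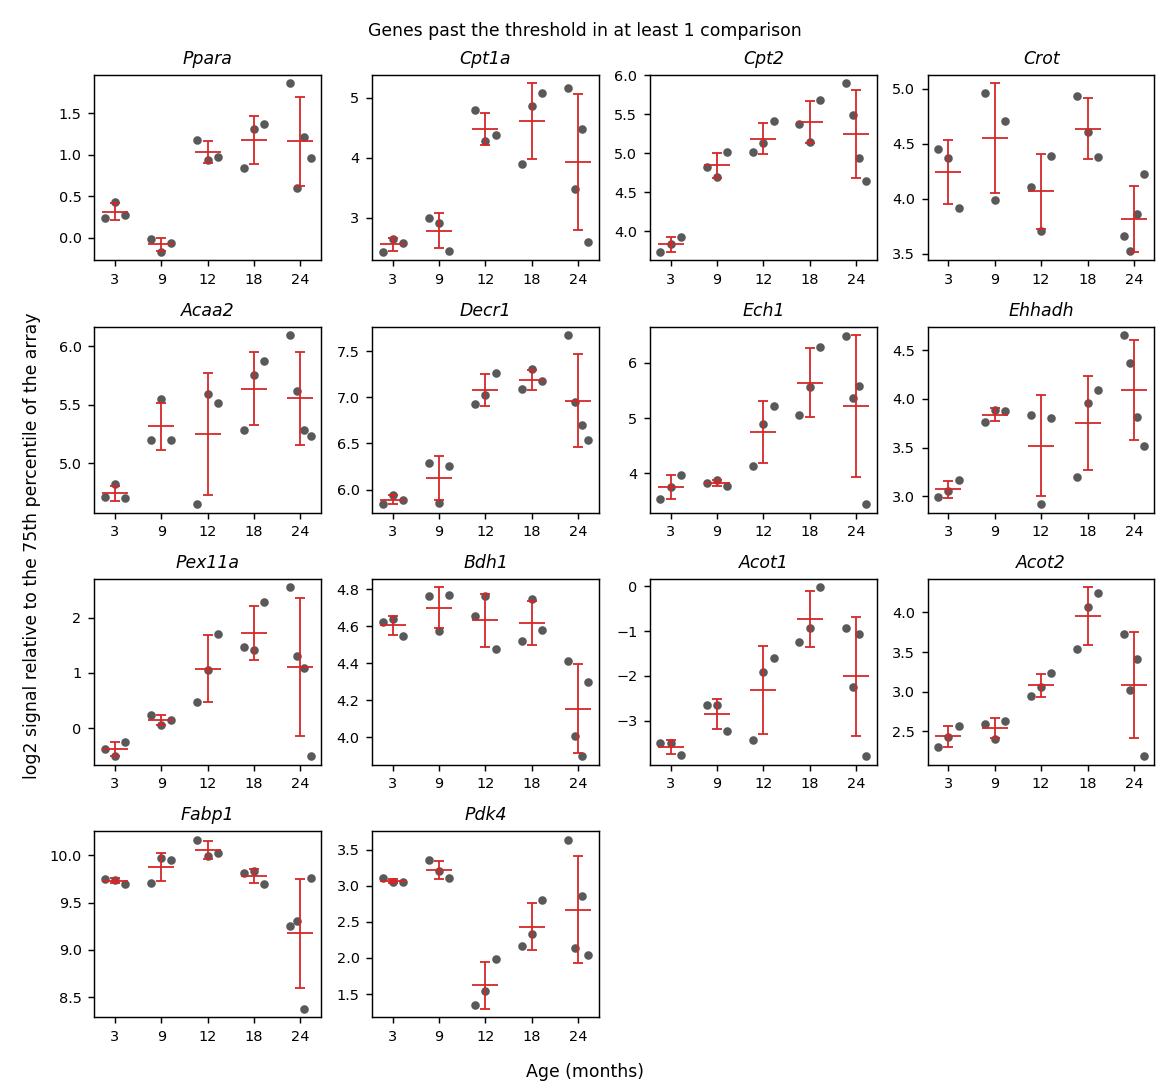
Log2 signal by age (months) of the 14 genes past the threshold in the F test or in at least 1 comparison; grey points are arrays, and red bars are the mean and SD of 3 arrays (4 at 24 months). Cpt2 lies above its 3-month values at every later age, Ppara and Decr1 are higher and Pdk4 is lower at 12 than at 9 months, and the 24-month arrays spread over the widest range in Cpt1a, Ech1, Pex11a and Acot1.

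Among the 3 peroxisomal genes, Ehhadh encodes the bifunctional enzyme of the peroxisomal cycle. It read 4.65, 4.37, 3.82 and 3.52 at 24 months, against 2.99, 3.06 and 3.17 at 3 months, without overlap. The difference was 1.02 (SE 0.29, adjusted p = 0.0337) by limma, and the call was lost without any 1 of the 3-month arrays and without replicate 1 or 2 of 24 months (adjusted p up to 0.114). At 9 months it was 3.76, 3.88 and 3.87, at 12 months 3.84, 2.92 and 3.80 and at 18 months 3.20, 3.96 and 4.09, with 1 of the 12-month arrays below the 3-month values. Pex11a, a membrane protein that makes peroxisomes divide, passed the F test (adjusted p = 0.0383). Its signal was -0.37, -0.51 and -0.24 at 3 months, 0.24, 0.06 and 0.15 at 9 months and 0.48, 1.05 and 1.70 at 12 months, and 1.46, 1.42 and 2.28 and 2.55, 1.30, 1.09 and -0.50 at 18 and 24 months. Every array from 9 months on lay above the 3-month arrays except replicate 4 of 24 months. The F test lost Pex11a without any 1 array of 3, 9 or 18 months or replicate 2 or 3 of 24 months. The 24-against-3-month difference was 1.48 (SE 0.51, adjusted p = 0.074) by limma, 1.42 on a second probe, and 2.30 without replicates 3 and 4. Decr2, the peroxisomal dienoyl-CoA reductase, passed no test, at 3.34, 2.92, 2.48 and 1.60 at 24 months and 1.84, 2.0 and 2.19 at 3 months.

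The electron transfer genes Etfa and Etfb, the 2 subunits of the flavoprotein, and Etfdh, which passes its electrons to ubiquinone, moved little. All 3 passed no test, and their 24-against-3-month differences lay between -0.15 and 0.26. The ketone body gene among the 34 was Bdh1, the mitochondrial dehydrogenase that interconverts acetoacetate and 3-hydroxybutyrate. Bdh1 read 4.42, 4.01, 3.90 and 4.30 at 24 months, against 4.62, 4.64 and 4.55 at 3 months and 4.52, 4.75 and 4.58 at 18 months. All 24-month arrays lay below both. The difference was -0.45 (SE 0.14, adjusted p = 0.0438) for 24 against 3 months and -0.46 (SE 0.14, adjusted p = 0.0235) for 24 against 18 months by limma. At 9 and 12 months Bdh1 read 4.76, 4.58 and 4.77 and 4.66, 4.76 and 4.48, close to 3 months. Without replicates 3 and 4 of 24 months the first difference was -0.39 (limma, adjusted p = 0.0991). The 24-against-3-month call was lost without any 1 array of 3 or 18 months, replicate 1 or 3 of 9 months or replicate 2 or 3 of 24 months. The 24-against-18-month difference was -0.40 (limma, adjusted p = 0.0658) without replicates 3 and 4 of 24 months, and its call was also lost without replicate 3 or 4 of 18 months or replicate 2 or 3 of 24 months, and the F test call (adjusted p = 0.0242) without replicate 2 or 3 of 24 months.

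Of the 5 genes for fatty acid activation and binding, Acot1 and Acot2, thioesterases that release fatty acids from coenzyme A in cytosol and mitochondria, passed the F test (adjusted p = 0.0256 and 0.00879). They are near-identical copies, and their probes may share target RNA, so the 2 are not independent. Acot2 read 2.30, 2.42 and 2.57 at 3 months, 2.59, 2.40 and 2.63 at 9 months and 2.95, 3.05 and 3.24 at 12 months. It read 3.54, 4.07 and 4.24 at 18 months and 3.73, 3.01, 3.41 and 2.18 at 24 months. The 18-month arrays lay above all arrays of the younger ages, and 24 months spread from below the 3-month arrays to between the 18-month ones. The difference was -0.87 (SE 0.28, adjusted p = 0.0376) for 24 against 18 months, and -0.58 (adjusted p = 0.0912) without replicates 3 and 4. That call was also lost without replicate 2 of 3 months, replicate 3 or 4 of 18 months or replicate 2 or 4 of 24 months. Acot1 read -3.51, -3.50 and -3.77 at 3 months, -2.66, -2.66 and -3.23 at 9 months, -3.44, -1.90 and -1.60 at 12 months, -1.24, -0.93 and -0.02 at 18 months and -0.93, -2.25, -1.07 and -3.80 at 24 months. Again 18 months had the highest mean. Replicate 4 of 24 months was the lowest array of all, and on it Acot1 was not well above background. The F test lost Acot1 without any 1 of the 3-month arrays or replicate 3 or 4 of 18 months.

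Fabp1, the abundant cytosolic fatty acid carrier of hepatocytes, passed the F test (adjusted p = 0.0459) with its lowest values at 24 months. It read 9.75, 9.74 and 9.70 at 3 months, 9.71, 9.97 and 9.96 at 9 months and 10.17, 9.99 and 10.02 at 12 months. At 18 months it read 9.81, 9.83 and 9.69 and at 24 months 9.25, 9.31, 8.38 and 9.76. Replicates 1, 2 and 3 of 24 months lay below every other array, and replicate 4 lay among the younger ones. The difference was -0.56 (SE 0.23, adjusted p = 0.135) for 24 against 3 months by limma, and -0.46 on a second probe. Without replicates 3 and 4 it was -0.45, and the F test lost Fabp1 without any 1 array except replicate 3 or 4 of 24 months. The synthetases Acsl1 and Acsl5 passed no test, at differences of 0.00 and 0.11 in 24 against 3 months.

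The last group holds genes that are classical markers of fasting or of the receptor. Pdk4, the kinase that shuts pyruvate dehydrogenase and so spares glucose, was the only 1 of them to pass. It read 3.1, 3.05 and 3.05 at 3 months, 3.36, 3.21 and 3.11 at 9 months and 1.35, 1.54 and 1.98 at 12 months. It read 2.17, 2.33 and 2.80 at 18 months and 3.64, 2.14, 2.86 and 2.04 at 24 months. The 12-month arrays lay below all arrays of 3, 9 and 18 months, and replicate 1 of 24 months was the highest array of all. For 12 against 9 months the difference was -1.60 (SE 0.33, adjusted p = 0.0149) by limma, -1.26 on a second probe and -1.88 within slide 2 (1 array against 2, no test). This call was lost without replicate 1 or 2 of 9 months. Pdk4 kept its F test call (adjusted p = 0.0119) under each alternative processing run and without each single array.

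Vnn1, a pantetheinase, Fgf21, a fasting hormone, and Angptl4, an inhibitor of lipoprotein lipase, passed no test and varied widely at 24 months. Vnn1 read -0.11, 0.16 and 0.81 at 3 months, 2.0, 2.17 and 3.08 at 18 months and 3.64, 2.23, 2.45 and -0.98 at 24 months. Fgf21 read 0.17, 0.39 and 0.25 at 3 months, 2.40, 2.10 and 1.52 at 9 months and 3.14, -1.65, 1.45 and 0.73 at 24 months. Angptl4 read 3.67, 3.94 and 3.64 at 9 months, against 1.83, 1.97 and 2.20 at 3 months, a difference of 1.75 (SE 0.62, adjusted p = 0.137) by limma. The 9-month arrays of Fgf21 and Angptl4 lay above all 3-month arrays, whereas at 24 months both genes ran from below to above the 3-month level.

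Between neighbouring ages, few of the 34 genes passed. In 9 against 3 months 1 was called (limma), against 1.94% of all genes higher, but 20 had groups that stood apart upwards and 1 downwards, against 23% and 18% of all genes, and 33 had a difference above 0 with a median of 0.32 (0.04 over all genes). Fitted on the arrays of those 2 ages alone, 13 genes were higher and 1 lower, against 9.44% and 9.76% of all genes in that fit. In 12 against 9 months 2 were higher and 1 lower, against 3.17% and 3.1% of all genes (6.27% in either direction), with a median of 0.04. Without replicate 2 of 12 months 3 were called (10% of all genes) and the median was 0.09, and over all fits that left out 1 array it lay between 0.0026 and 0.14. Leaving out replicate 1 or 2 of 9 months left 0 called there (2.25% and 2.48% of all genes), replicate 3 of 9 months left 1 (2.35%), and replicate 4 of 24 months left 5 (7.59%). In 18 against 12 months 0 were called by limma, against 1.38% of all genes, with a median of 0.18. That median was 0.10 without replicate 2 of 12 months, 0.32 without replicate 4 of 12 months and 0.29 without replicate 1 of 18 months. In 24 against 18 months 3 were lower and 0 higher, against 15% and 10.8% of all genes (25.8% in either direction), with 27 of 34 differences below 0 and a median of -0.23. The direction of that median rests on the arrays used: it was 0.11 with 20 genes above 0 without replicates 3 and 4 of 24 months. In that fit Decr2 was called higher and Crot and Fabp1 lower, against 10.6% and 14.8% of all genes. With scan session as a block 17 genes lay above 0, but there the session difference rests on replicate 2 of 12 months alone. Without single arrays of 24 months it was -0.37 (replicate 1), -0.25 (replicate 2), -0.15 (replicate 3) and -0.08 (replicate 4). Leaving out replicate 3 of 18 months or replicate 2 of 24 months left 0 called there (18.1% and 22.3% of all genes), replicate 4 of 18 months left 1 (19.1%), and replicate 1 of 24 months left 6 (24%). Comparisons that share an age share its arrays, so their differences are not independent.

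**Figure D3:**
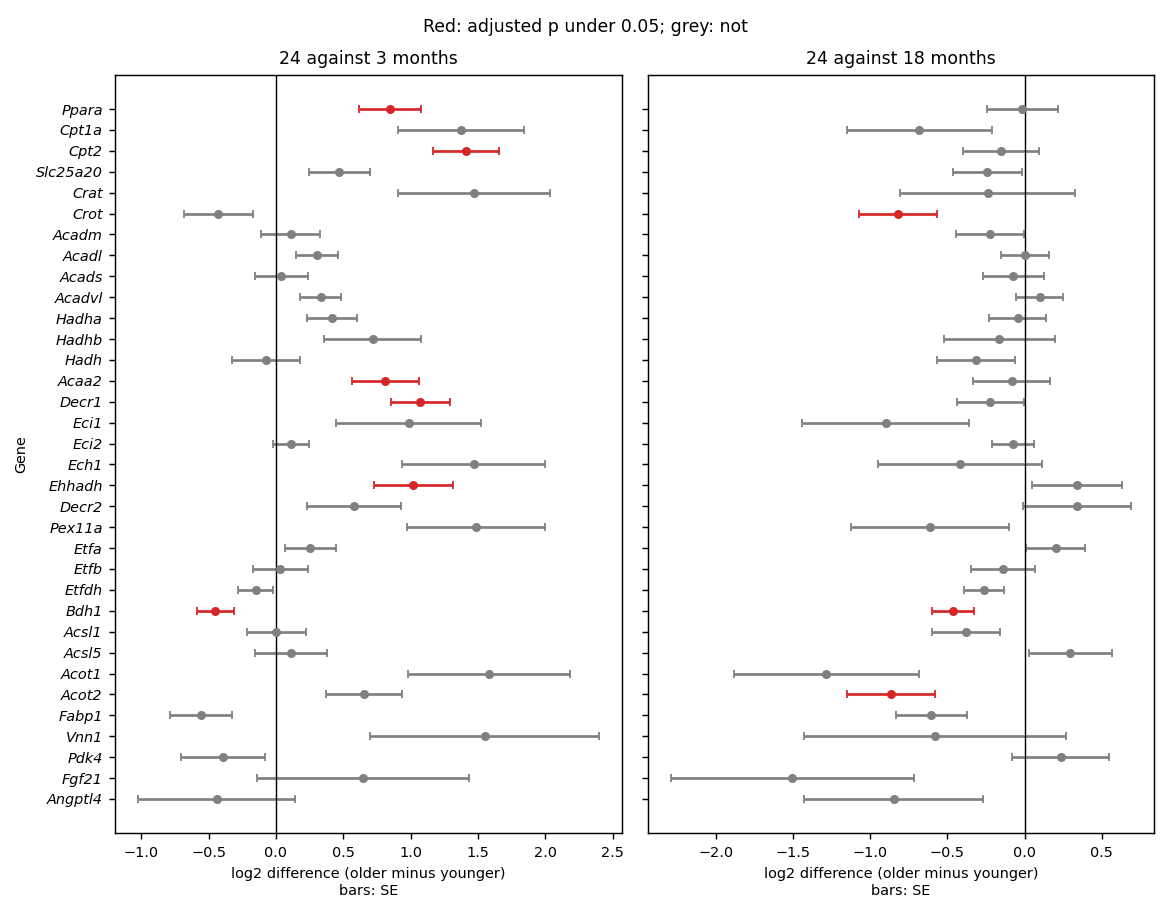
Log2 differences of the 34 genes, older minus younger age, with SE bars, for 24 against 3 months (left) and 24 against 18 months (right); red marks an adjusted p under 0.05. Most points lie right of 0 against 3 months and left of 0 against 18 months, although 20 of 34 lay right of 0 in the second when replicates 3 and 4 of 24 months were left out, with Cpt2 and Decr1 the clearest on the left and Bdh1, Crot and Acot2 called on the right.

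Other genes of the pathway are given for 24 against 3 months, where 13.3% of all genes were called in either direction. Of 8 ketone body genes outside the 34, 2 were higher and 1 lower. Bdh2, a cytosolic hydroxybutyrate dehydrogenase, was 0.68, 0.27, 0.55 and 0.34 at 24 months and -1.17, -0.98 and -1.25 at 3 months, higher by 1.59 (SE 0.26, adjusted p = 0.00133) (limma). Aacs, which uses acetoacetate for lipid synthesis, differed by 2.02 (adjusted p = 0.0391), and Slc16a1, a ketone body and lactate transporter, by -1.10 (adjusted p = 0.039). Of 18 further peroxisomal genes, 2 were higher by limma (Phyh, the phytanoyl-CoA hydroxylase, by 1.11, and Abcd3, a fatty acyl importer, by 0.68).

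Of 21 partners and coregulators of the receptor, 0 were higher and 2 lower in 24 against 3 months: Lpin1, a coactivator and phosphatidate phosphatase, differed by -1.15 (SE 0.31, adjusted p = 0.0259), and Ppard, a related receptor, was above background on only 1 array of 24 months. Of 33 further targets of the receptor, 3 were higher and 1 lower by limma. Aldh3a2, a fatty aldehyde dehydrogenase, differed by 0.68, Slc25a42, a mitochondrial coenzyme A carrier, by 0.85, Plin5, a lipid droplet protein, by 1.48 and Gk, glycerol kinase, by -1.17. Of 30 other acyl-CoA enzymes, 4 were higher and 0 lower, among them Echdc1, an ethylmalonyl-CoA decarboxylase, by 0.65 and Gcdh, glutaryl-CoA dehydrogenase, by 0.71. The median differences of these lists ran from -0.03 to 0.28, against 0.44 for the 34 genes and -0.04 for all genes.

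Feeding and clock genes differed between arrays, and their values are set beside those of the 34 genes. The mean log2 signal of the 34 genes, each gene centred on its own mean, was -0.51, -0.41 and -0.43 at 3 months and -0.01, -0.03 and -0.03 at 9 months. It was -0.26, 0.08 and 0.25 at 12 months, 0.21, 0.37 and 0.54 at 18 months and 0.71, -0.02, -0.05 and -0.39 at 24 months. Replicate 2 of 12 months and replicate 4 of 24 months were thus the lowest of their ages, and the 33 further targets of the receptor had the same 2 arrays lowest, at -0.52 and -0.51. A list of 20 feeding and fasting genes, which mixes genes raised by food with genes raised by fasting, stood at 0.83 on that 12-month array, against -0.41 and 0.21 on the others of its age. On replicate 4 of 24 months it stood at 0.92, against -1.21, -0.29 and -0.89 on replicates 1, 2 and 3. Pnpla3, a lipogenic gene raised by feeding, was 0.52, -4.23 and -2.87 at 12 months and -5.84, -3.14, -4.28 and -0.28 at 24 months, with its highest values on the same 2 arrays. It was 1.93, 2.04 and 2.17 at 9 months, against -4.25, -3.91 and -4.05 at 3 months. Igfbp1, raised by fasting and lowered by insulin, was 1.13, 1.31 and 0.71 at 9 months, against 5.20, 5.37 and 5.33 at 3 months, a difference of -4.25 (SE 0.41, adjusted p = 0.000145) by limma. Other genes of the list raised by fasting did not move alike on replicate 2 of 12 months and replicate 4 of 24 months. G6pc1 had its highest value of each age there (8.36 and 7.81), and Foxo1 its lowest (0.21 and 0.42). In 24 against 3 months 0 of the 20 genes passed. Replicate 2 of 12 months also had the lowest 75th percentile of all arrays (171.1 intensity units) and was the only 12-month array on slide 2. Replicate 4 of 24 months had 195.4 units, against 324.8 to 412.2 on the others of its age. It also had the lowest share of probes well above background (52.5%). The part of brightness, slide or scan day in the low levels of these arrays was not tested.

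Clock genes were also measured on every array. Of 16 such genes, 9 were higher and 2 lower in 24 against 3 months (limma), against 4.23% and 9.07% of all genes. In 12 against 9 months 9 were higher and 4 lower, against 3.17% and 3.1% of all genes. Dbp, a clock output factor, was 5.50, 5.44 and 5.29 at 12 months, against -0.41, -0.55 and -0.11 at 9 months, without overlap. Per3, a clock repressor, was above background on 0 of 3 arrays at 3 months, 0 of 3 at 9 months and all arrays of 12, 18 and 24 months. The higher signals of Ppara and Decr1 and the lower signal of Pdk4 at 12 than at 9 months thus fell at the same ages as the differences in clock genes. Cpt1a was also higher at 12 months but was not called. The part of the hour of collection or of feeding in the results above was not tested.

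**Figure D4:**
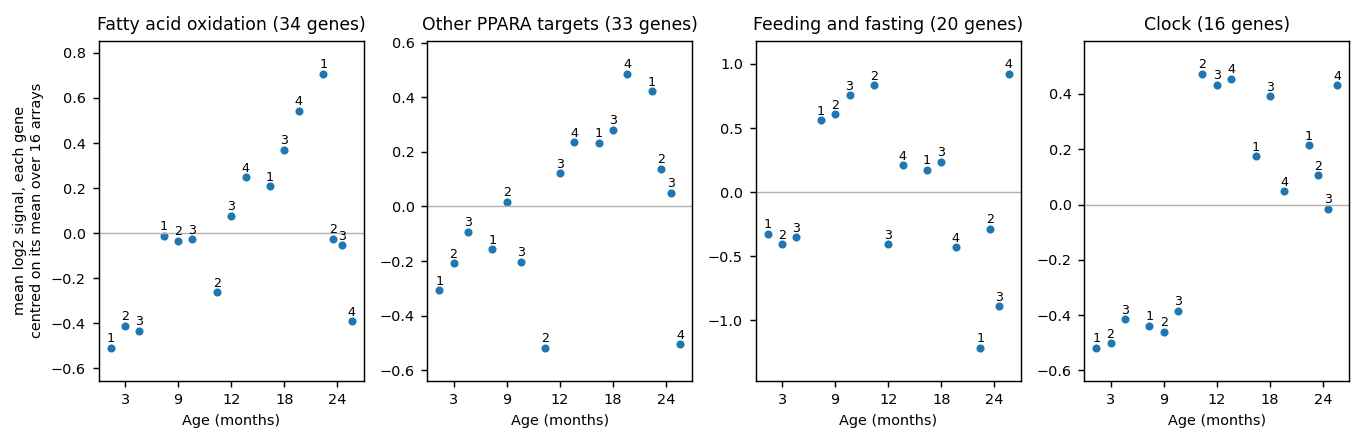
Mean log2 signal of 4 gene lists by age (months), each gene centred on its mean over the 16 arrays; each point is an array and carries its replicate number. Replicate 2 of 12 months and replicate 4 of 24 months are the lowest of their ages for the fatty acid oxidation genes and for other PPARA targets and the highest of their ages for the feeding and fasting list, and the clock list lies between -0.52 and -0.38 at 3 and 9 months and at -0.02 or above at the later ages.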

How the data were processed

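Per the file headers, the deposited signal, mean signal and background columns hold intensity values made with Agilent Feature Extraction 10.7.3.1, not normalized between arrays. Other columns hold flags, per the file headers. In their own series table the authors gave log2 values whose normalization is not given in the sources used here; its array medians run from 4.92 to 4.94, and it served as an alternative alone. From log2 of the processed signal, each array's 75th percentile (171 to 412 intensity units) was subtracted. Outlier spots were dropped, repeated spots averaged, and no spot was saturated. A probe was kept when every array of 1 age or more had it well above background (25697 of 41012), and the brightest kept probe stood for a gene, which gave 21488 genes, 16570 of them above background on all arrays. Of the 34 genes, 9 had over 1 kept probe. Probes were named by the array's gene name for the chosen genes, and 18028 probes through their accession in RefSeq otherwise. The build of that resource is not that of the headers, and positions are given for RefSeq promoter windows only.

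A mean per age was fitted over all 16 arrays with limma 3.58.1 (R 4.3.3, data.table version 1.17.8), two-sided, with Benjamini-Hochberg adjustment over all genes and a threshold of 0.05. Promoter letters and figures were made with Python 3.11 tools. Genes past the threshold in any comparison are given on every array, others by range and count; of further pathway lists, up to 4 genes called in 24 against 3 months by smallest p, and of feeding, clock and cell type lists up to 2. The members and lists were chosen with earlier results of these data known. Of the further pathway lists, 2 genes are not reported here and are not in the counts. Tested on simulated arrays of 21451 genes, the 24-against-3-month fit called 51 of 100 genes with a 2-fold change and 94 of 100 with a 4-fold change, beside 14 false calls. Recovery with a slide effect or with unequal spread between ages was not tested. The measured arrays had both: the slide correlation was 0.687, and the median SD of the members was 0.10 at 3 months and 0.54 at 24 months. These counts therefore do not give the recovery or the false calls of the measured comparison. Same-numbered arrays of different ages did not deviate together (correlations -0.3 to 0.119), so replicate numbers were not taken as pairs. Signal over background and the number of arrays limit the precision. Alternatives were other normalizations, background correction, filters, probe summaries, blocks and left-out arrays. Leaving out replicates 3 and 4 of 24 months together was added after seeing the data.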

Additional observations from a re-analysis of the deposited data

Results flagged for a closer look

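At 24 months, 2 values lay far from the other 3 arrays of that age. Acadm, the medium-chain dehydrogenase, read 6.67 on replicate 3, and its nearest neighbour was 7.56, a gap of 0.872 of the range of the group. Acsl5, a long-chain acyl-CoA synthetase, read 6.78 on replicate 4, with 5.84 next to it, a gap of 0.853 of the range. Of 34 genes examined at that age 2 were set apart in this way, and chance does so in about 1 of 20 groups.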

How the results depend on the processing

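Counts of the 34 genes past the threshold depended on the processing, and no call changed sign in any alternative run. In 24 against 3 months (6 called), normexp background correction gave 0 (2.31% of all genes) and slide as a random block (correlation 0.687) gave 0 (1.44%). No filter gave 3 (7.07%), only the 2 ages compared gave 2 (9.46%) and a fold of at least 2 gave 3. For the fold of at least 2, here and below, the share of all genes is not given. The fit without replicates 3 and 4 of 24 months, added after seeing the data, gave 17 (15%). In 9 against 3 months (1 called), quantile normalization, normexp, the authors' series table and no filter each gave 0 (1.71% to 5.59% of all genes). There, slide as a random block gave 3 (9.56% of all genes) and the 2 ages alone gave 14 (19.2% of all genes). With slide as a fixed block or slide 1 alone, 1 array stands for 9 months, so no count is given. In 12 against 9 months (3 called), normexp gave 0 (0.791% of all genes) and slide as a random block 7 (22.5% of all genes). With slide as a fixed block, slide 2 alone or scan session as a block, replicate 2 alone stands for 12 months, so no count is given. In 24 against 18 months (3 called), slide as a random block gave 0 (4.53% of all genes), the 2 ages alone 1 (19.4%) and a fold of at least 2 gave 0. Scan session as a block rests there on replicate 2 of 12 months, so no count is given. In the F test (11 called), normexp gave 5, no filter 7, slide as a random block 4, and the fit without replicates 3 and 4 of 24 months 18. For F test counts of changed fits, here and elsewhere, the share of all genes is not given. Whether such counts are particular to the 34 genes was not tested. In 18 against 12 months each alternative run gave 0. The fit with replicate number as a block, although the numbers did not pair the arrays, gave 2, 0, 0, 0 and 6 in place of 6, 1, 3, 3 and 11 in these comparisons, and 1 of 16 arrays correlated best with its own number. That fit called 9.88% of all genes in 24 against 3 months, 3.7% in 9 against 3, 1.7% in 12 against 9 and 20.3% in 24 against 18. Leaving out single arrays gave 2 to 15 genes in 24 against 3 months, 0 to 1 in 9 against 3, 0 to 5 in 12 against 9, 0 to 0 in 18 against 12, 0 to 6 in 24 against 18 and 7 to 19 in the F test. The shares of all genes ran from 7.32% to 17.8%, 2.25% to 7.58%, 2.25% to 10%, 0.382% to 3.36% and 18.1% to 32.1% in the comparisons of 2 ages, in that order. Of the 24 calls of single genes, quantile normalization kept 21, 19 were kept with the series table, 23 with the mean of probes, 14 each with scan session as a block, which rests in part on 1 array of 12 months, and with no filter, 8 with the replicate block, 7 with normexp and 6 with slide as a random block, and the cause was not tested. Normexp moved the median of all genes in 24 against 3 months to 0.12, from -0.04, and that of the 34 genes to 0.18, from 0.44. Signal over background limits only Acot1 among these genes.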
